A study of Mus musculus with 8 samples.

Results

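*Nkx3-2* (the *Bapx1* gene), *Nkx2-5* and *Nkx2-3* are the NK homeobox genes described here, as measured in the EGFP positive fraction of dissected E12.5 mouse spleen. Every array probe annotated with one of these symbols was taken, which gave 3 of 19057 annotated genes and 5 of 45281 probes: 2 for *Nkx3-2*, 1 for *Nkx2-5* and 2 for *Nkx2-3*. Each probe is reported apart. The 8 samples comprised 4 labelled *Bapx1* wildtype and 4 labelled *Bapx1* null (homozygous), all from the mixed C57BL/6J;129 strain, and each was hybridized to a single-colour Illumina BeadChip array. In the wildtype embryos EGFP followed an intact *Bapx1* coding sequence by way of an IRES placed in its 3' UTR (tm2.Tlu, written by the study as heterozygous). In the null embryos EGFP stood directly after the *Bapx1* start codon on both alleles (tm4.Tlu/tm4.Tlu). All 8 samples therefore carried EGFP under the control of the *Bapx1* promoter and were sorted on it. The reporter allele and its copies changed together with the genotype, and their parts in any difference cannot be told apart. The number of embryos behind a sample was not given, so the p-values measure the spread between these samples.

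NK homeobox proteins bind DNA through a shared homeodomain and act in mesoderm as repressors or activators, depending on their partners. *Bapx1* recruits Groucho family corepressors, patterns the axial skeleton and is needed for the spleen, which *Bapx1* null mice lack. *Nkx2-5*, best known as a regulator of the heart, is also active in the splenic mesenchyme, and *Nkx2-3* is needed for a normally built spleen and its vascular address molecules. Intensities are given as background-corrected, quantile normalized log2 values, and a probe was called above background on an array at a detection p under 0.05.

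All 5 probes were above background on at least 4 of the 8 arrays and so entered the comparison of null with wildtype, which asked whether the 3 genes differ with *Bapx1* genotype. Of the 5, 2 were higher and 2 were lower in null at an adjusted p under 0.05 (limma), and 1 did not pass; of the lower ones *Nkx2-3* ILMN_2697760 turned in sign with median absolute deviation scaling. The background to these counts is broad: of 19841 probes tested, 41.9% passed, 21.6% as higher and 20.3% as lower, and in 38.3% the arrays of the genotypes did not overlap, as they did not in 4 of the 5 probes. The share of lower calls among all calls was 48.5%, and it moved to 26.9% with median absolute deviation scaling and to 69.6% with median centring. The 2 *Nkx3-2* probes passed the detection filter through the null arrays alone, and a probe that enters in this way has to differ. In all, 373 probes entered through 1 genotype alone.

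**Figure D1:**
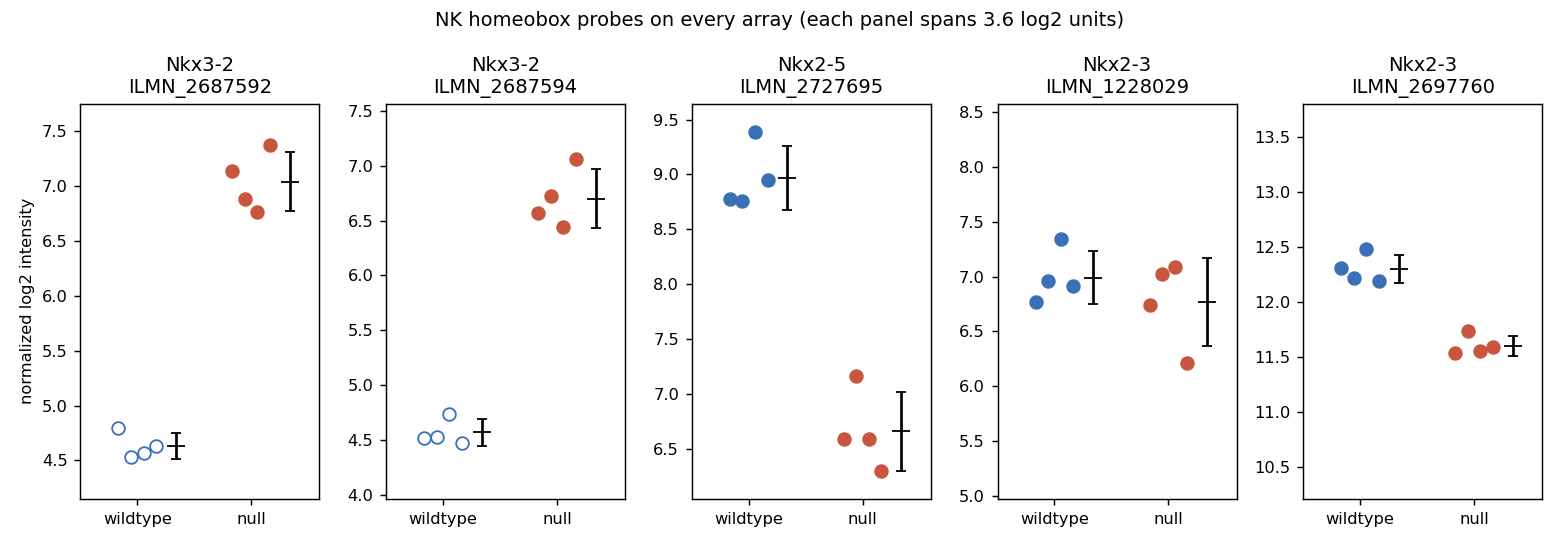
Normalized log2 intensity (y axis) of each of the 5 probes on the 4 wildtype (blue) and 4 null (red) arrays, with replicates 1 to 4 from left to right, open circles for arrays not above background and bars for the mean and SD. Both *Nkx3-2* probes are open in wildtype and filled in null, *Nkx2-5* and *Nkx2-3* ILMN_2697760 are lower in null (the latter not with median absolute deviation scaling), and the genotypes overlap at *Nkx2-3* ILMN_1228029.

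*Nkx3-2*, the targeted gene, gave more signal on the arrays labelled null. At probe ILMN_2687592 the background-subtracted intensity was 12.1, -0.4, 0.7 and 4 on wildtype replicates 1 to 4, none of them above background. It was 90.2, 103.6, 76.9 and 147.5 on null replicates 1 to 4, all above background. After normalization these became log2 intensities of 4.80, 4.53, 4.57 and 4.63 in wildtype and 7.14, 6.88, 6.76 and 7.37 in null. The lowest null array lay 1.96 above the highest wildtype array, and null replicate 4 was the highest. The group means were 4.63 ± 0.12 (SD, n = 4) and 7.04 ± 0.27, a log2 difference of 2.41 with a standard error of 0.14 (adjusted p = 1.4e-05, limma). With no wildtype array above background, the fold is a lower bound, and the signal was at least 3.79-fold higher in null.

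The other *Nkx3-2* probe, ILMN_2687594, gave the same order of the genotypes. Its background-subtracted intensity was -1.5, -0.5, 7.3 and -4.1 on wildtype replicates 1 to 4, again with no array above background. On null replicates 1 to 4 it was 56, 90.2, 59.4 and 115.8, again with all above background and replicate 4 highest. The log2 means were 4.57 ± 0.12 (SD, n = 4) and 6.70 ± 0.27, a difference of 2.13 with a standard error of 0.14 (adjusted p = 2.2e-05, limma), which is at least 2.99-fold higher in null.

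These signals do not check the genotype labels. The study describes the null allele as EGFP inserted after the start codon with a short deletion, whether *Bapx1* sequence behind it is transcribed was not tested, and the positions of the probes were not used here. A probe outside the deleted stretch does not check the deletion. The arrays are therefore called by their labels, and each direction below is that of the arrays labelled null against those labelled wildtype. The size of the *Nkx3-2* difference depended on how signal near background was treated. It was 1.49 and 1.26 for ILMN_2687592 and ILMN_2687594 with an offset of 50, and 5.61 and 5.73 without background correction, always in the same direction. In bulk RNA of sorted cells, fewer cells of a type and less RNA per cell cannot be told apart, here and in the results that follow.

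*Nkx2-5*, the cardiac and splenic regulator, was lower on the null arrays. At its only probe, ILMN_2727695, the background-subtracted intensity was 537.3, 388.6, 708.3 and 515 in wildtype and 57, 129.2, 67.2 and 60 in null, each in the order of replicates 1 to 4. All 8 arrays were above background, so the gene was still measured in null cells. The log2 intensities were 8.78, 8.76, 9.39 and 8.95 in wildtype and 6.59, 7.16, 6.59 and 6.30 in null, and the highest null array, replicate 2, lay below every wildtype array. The means were 8.97 ± 0.29 (SD, n = 4) and 6.66 ± 0.36, a log2 difference of -2.31 with a standard error of 0.20 and a 95% interval of -2.76 to -1.86 (adjusted p = 9.0e-05, limma). On a linear scale this was 4.96-fold lower, with an interval of 3.62 to 6.78. Of all kept probes 0.484% differed by at least as much, and by the size of the moderated t the probe ranked 209 of 19841. The call held under each of the 22 alternative settings run, with differences from -2.93 to -1.98.

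A known Bapx1 recognition sequence, which the study also found in its binding data from the vertebral column, is TGAGTG or TAAGTG. These letters were searched for on both strands of the RefSeq promoter window of each gene, from 250 bases before to 50 bases after its start (build GRCm38.p6). The motif TNAAGTG, in which N is any base and which resembles the site bound by Nkx2-5, was searched for as well, and its matches can overlap those of TAAGTG. Only the *Nkx2-5* window held a match, 1 copy of TGAGTG on the gene's own strand. It is shown because *Nkx2-5* had the largest fall of the 3 genes, at chr17:26841729-26841758 on the minus strand, with the motif in capitals 181 bases before the start:
Nkx2-5: aggtattttcttTGAGTGtgtctggctggg
TGAGTG was present in 16.4% of 32851 promoter windows of this length, TAAGTG in 9.2% and TNAAGTG in 11.5%. The windows of *Nkx3-2* (chr5:41764171-41764470, minus strand) and *Nkx2-3* (chr19:43612075-43612374, plus strand) held none of the 3. A match is a run of letters in a window, and binding was not measured in these samples.

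*Nkx2-3*, a homeobox gene of gut and spleen mesenchyme, was measured by 2 probes, of which only the brighter passed the threshold. Both fitted differences were negative, and a difference between the probes was not tested. At the brighter, ILMN_2697760, the background-subtracted intensity was 6029.9, 4401.6, 6087.1 and 4869.6 for the wildtype replicates in their order and 2266.6, 3490.7, 2786.3 and 3213.2 for those of null. The log2 intensities were 12.31, 12.22, 12.48 and 12.19 in wildtype and 11.53, 11.73, 11.55 and 11.59 in null. The genotypes were separated by a gap of 0.46. The means were 12.30 ± 0.13 (SD, n = 4) and 11.60 ± 0.09, a log2 difference of -0.70 with a standard error of 0.10 and a 95% interval of -0.92 to -0.48 (adjusted p = 9.7e-04, limma), which is 1.62-fold lower in null. With median absolute deviation scaling the difference was 0.15 (adjusted p = 0.742, limma), while the median of all kept probes moved from 0.04 to 0.29. Other probes of like brightness moved up with this scaling as well. *Srsf9* ILMN_1222447 went from -0.10 to 0.82 and *Sfrp1* ILMN_1231689 from -0.11 to 0.86. With median centring *Nkx2-3* ILMN_2697760 stood at -0.76 (adjusted p = 0.00262, limma). The direction for this probe thus rests on how the arrays are scaled.

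At the dimmer probe, ILMN_1228029, the background-subtracted intensity was 123.6, 103.1, 157.1 and 117.1 for the wildtype replicates in their order and 64.9, 116.4, 101.4 and 55.3 for those of null. All arrays were above background. The log2 intensities were 6.77, 6.96, 7.34 and 6.91 in wildtype and 6.74, 7.02, 7.09 and 6.21 in null, so that null replicates 2 and 3 lay within the wildtype range. The difference was -0.23 with a standard error of 0.20 and a 95% interval of -0.69 to 0.23 (adjusted p = 0.387, limma, and p = 0.457 in an exact two-sided permutation test with n = 4 per genotype). Which transcripts each *Nkx2-3* probe reads was not examined here.

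Within an array, *Nkx2-5* changed more than *Nkx2-3*. The log2 intensity of the *Nkx2-5* probe minus that of *Nkx2-3* ILMN_2697760 ran from -3.53 to -3.09 over the wildtype arrays and from -5.29 to -4.57 over the null arrays. The mean of this quantity moved by -1.61 and the ranges did not overlap. A probe's brightness depends on its own sequence, so only the movement of such a quantity is read here and not its level.

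**Figure D2:**
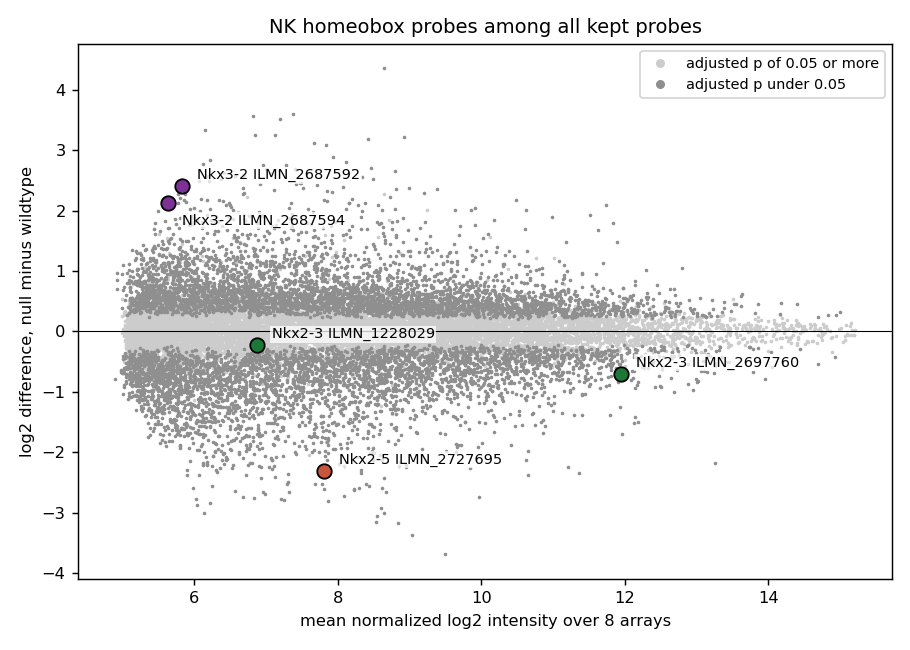
Log2 difference of null minus wildtype (y axis) against the mean normalized log2 intensity over the 8 arrays (x axis) for the 19841 kept probes, dark grey where the adjusted p was under 0.05. The *Nkx3-2* probes lie at the dim upper left (2.41 and 2.13), *Nkx2-5* at -2.31 among the lowest probes, and *Nkx2-3* at -0.70 (ILMN_2697760, 0.15 with median absolute deviation scaling) and -0.23 (ILMN_1228029).

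Some arrays stood high or low at several of the 5 probes. Wildtype replicate 3 was the highest wildtype array at *Nkx2-5* and at both *Nkx2-3* probes. Null replicate 4 was the highest null array at both *Nkx3-2* probes and the lowest at *Nkx2-5* and *Nkx2-3* ILMN_1228029, and null replicate 2 was the highest null array at *Nkx2-5* and *Nkx2-3* ILMN_2697760. Marker signal of cell types that a sort on EGFP should leave out also differed between the arrays, and its source was not tested. The 5 kept probes of gut epithelium markers summed to a background-corrected intensity of 167 to 226 over wildtype. On null replicates 1 to 4 the sum was 354, 772, 836 and 223. Of these 5, 3 rose in null (*Krt8*, *Krt18* and *Cldn6*). *Cdx1* (-0.26, adjusted p = 0.113, limma) and *Cldn7* (0.11, adjusted p = 0.402, limma) did not pass. *Cdx2*, *Foxa2* and *Krt19* were not above background on any array, and the *Krt8* probe is also listed for mesothelium. The 8 kept erythroid probes summed to 1530 to 7330 in wildtype and 857 to 27200 in null, the lowest on null replicate 4, and none passed the test. The 6 kept neural probes summed to 484 to 837 in wildtype and 997 to 1380 in null, and 3 rose (*Sox10*, *Stmn2* and *Dcx* ILMN_1228206). Over all kept probes 21.6% were higher in null. A setting chosen on splicing regulators, and not on these markers, left out the 3 arrays lowest on them for their genotype, which are wildtype replicate 3 and null replicates 2 and 3. The differences were then 2.60 and 2.31 for the *Nkx3-2* probes, -2.38 for *Nkx2-5* and -0.68 (ILMN_2697760) and -0.41 (ILMN_1228029) for *Nkx2-3*.

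*Xist*, the RNA of the inactive X chromosome, was taken as a covariate by its brightest probe, ILMN_2475156, with log2 intensities of 10.76 to 12.44 in wildtype and 9.18 to 9.91 in null. Of its 4 probes 3 fell, and ILMN_3022688 ran from 7.92 to 8.32 in wildtype and from 6.35 to 8.73 in null (adjusted p = 0.428, limma). The mean of 29 splicing regulator genes, as a deviation from its level over all arrays, lay at 0.13 to 0.39 in wildtype and -0.56 to -0.05 in null. Neither covariate overlapped between the genotypes. With *Xist* as a covariate *Nkx2-5* stood at -2.65 (adjusted p = 0.033, limma) and the *Nkx3-2* probes at 2.55 and 2.08 (adjusted p = 0.0155 and 0.026), whereas *Nkx2-3* ILMN_2697760 stood at -0.94 and lost its call (adjusted p = 0.0812). With the splicing regulators as a covariate *Nkx2-3* ILMN_1228029 stood at -1.19 and gained one (adjusted p = 0.0131, limma).

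**Figure D3:**
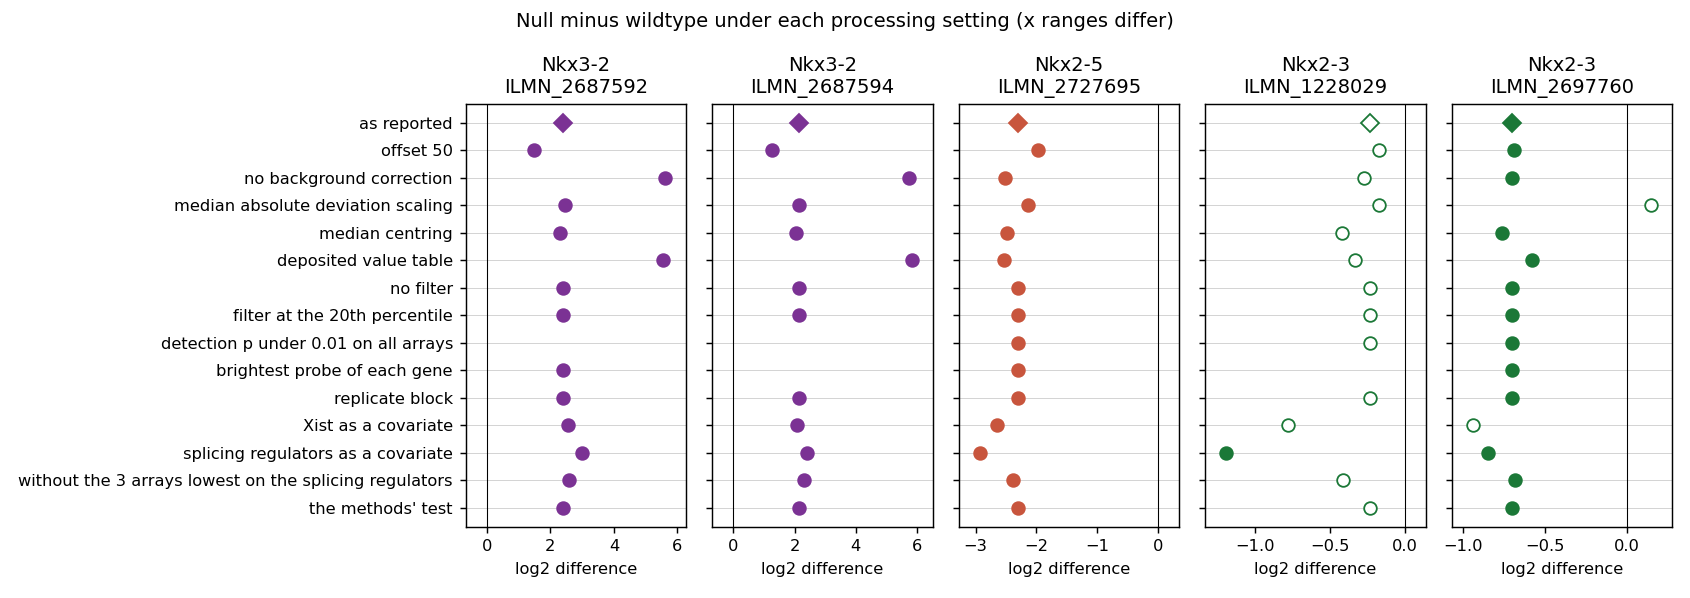
Log2 difference of null minus wildtype (x axis, range set per probe) of the 5 probes under each processing setting (y axis), as a diamond for the reported value and filled where the adjusted p was under 0.05. *Nkx2-5* and both *Nkx3-2* probes stay filled and on their side of 0, and *Nkx2-3* ILMN_2697760 crosses 0 with median absolute deviation scaling (0.15). Both *Nkx3-2* probes entered through the null arrays alone and had to differ. The strict detection filter leaves out *Nkx3-2*, and the brightest probe setting holds 1 probe per gene.

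The other NK genes were at or near background in these cells. Of 11 listed, 9 had a probe joined to the signal table, 12 probes in all, and none of the 12 was above background on 4 or more arrays. *Nkx2-1*, *Nkx2-2*, *Nkx2-4*, *Nkx2-6*, *Nkx2-9* and *Nkx1-2* were not above background on any array. *Nkx6-1*, a gene of endocrine pancreas and ventral neural tube, had a background-subtracted intensity of -0.1 to 2.6 over the wildtype arrays, none above background, and of 23.7, 42.5, 66.8 and 1 on null replicates 1 to 4, the first 3 above background. *Nkx6-2* ILMN_2635578 followed the same arrays, with -6.3 to 2 in wildtype and 15.5, 19.5, 39.2 and -3.6 on null replicates 1 to 4, again with the first 3 above background. The other *Nkx6-2* probe, ILMN_2765101, was not above background on any array, with 10.8, 15.2, 8.9 and 4.5 on null replicates 1 to 4. *Nkx6-3*, a gene of the stomach epithelium, was above background on null replicate 3 alone, at 23.7. These probes did not pass the filter and were not tested. Null replicate 4, on which none of the 3 genes was above background, was also the null array with the least gut epithelium signal. It was likewise the lowest null array for markers of pancreas epithelium (141), endothelium (816), erythroid cells (857) and mesothelium (499). For heart muscle, skeletal muscle and somite, and neural markers null replicate 1 was lowest. The part of any of these signals in the *Nkx6* values was not tested.

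**Figure D4:**
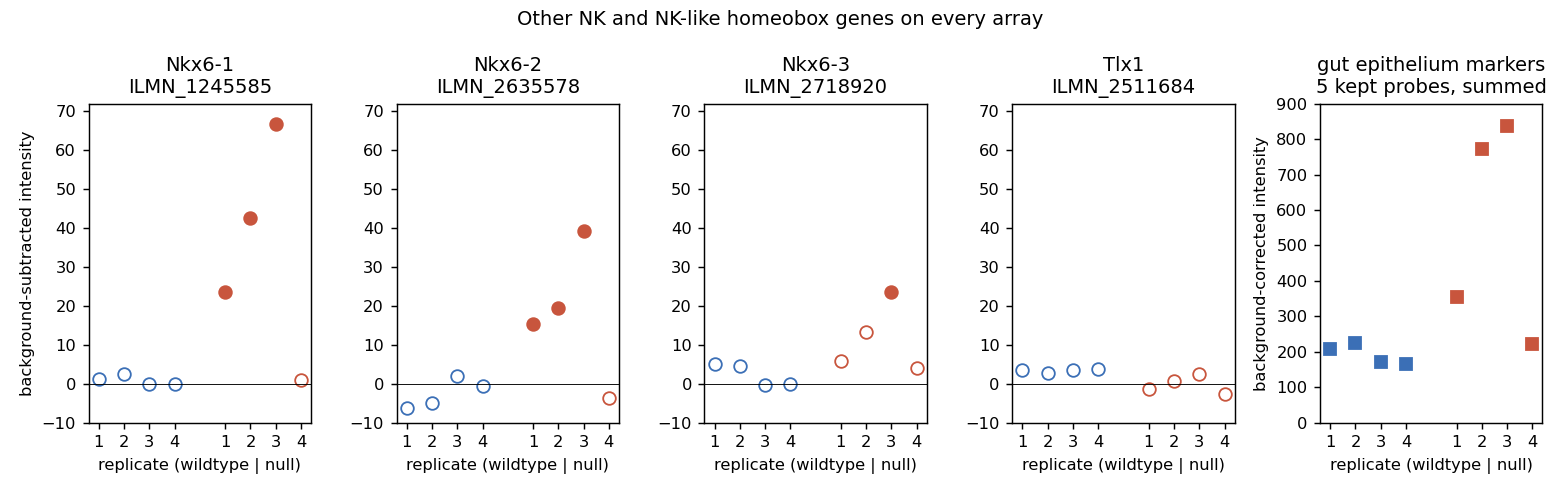
Background-subtracted intensity (y axis) of *Nkx6-1*, *Nkx6-2* (ILMN_2635578 only), *Nkx6-3* and *Tlx1* on wildtype (blue) and null (red) replicates 1 to 4 (x axis), filled where above background, with the summed background-corrected intensity of the 5 kept gut epithelium probes at the right. *Nkx6-1* reaches 66.8 on null replicate 3 and is at 1 on null replicate 4, and *Tlx1* is not above background on any array.

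*Tlx1*, the NK-like homeobox gene whose loss in mice removes the spleen, was above background on 0 of the 8 arrays, with intensities of 2.8 to 3.8 in wildtype and -2.7 to 2.6 in null. This defining marker of the spleen anlage was thus not detected at its probe, while *Tcf21*, which is also needed for the spleen, stood at a log2 intensity of 10.83 in wildtype and 10.88 in null (difference 0.05, adjusted p = 0.752, limma). *Pdx1*, a pancreas regulator, was above background on null replicate 2 alone. Of heart muscle genes, where *Nkx2-5* is most active, 9 of 12 probes were not above background anywhere and only *Ryr2* ILMN_1244913 was kept.

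Genes of the same pathway were followed as lists. Of 88 kept probes in these lists, 50 passed the threshold (35 genes), 56.8% against 41.9% over all probes. The counts of each list below stand beside 21.6% higher and 20.3% lower over all kept probes, and no list was tested as a set. *Gata6* ILMN_1255968, *Meox2* and *Hopx* entered through 1 genotype alone, had to differ and are part of these counts. With median absolute deviation scaling 42 of the 50 still passed in the same direction, with median centring also 42, and 21 did so when the splicing regulators were the covariate. With *Xist* as a covariate 10 did: both probes of *Barx1*, *Gata6* ILMN_2868133, *Tle2* ILMN_2669225, *Tbx3* ILMN_1247220 and ILMN_3139514, *Gli3*, *Meox2*, *Sox9* ILMN_3007428 and *Sfrp2*. All other calls of these lists were lost with *Xist*, which is not repeated at each gene below. Over all 19841 kept probes the count of calls went from 8312 to 304 with *Xist* and to 1383 with the splicing regulators. Neither covariate overlapped between the genotypes, so its part and that of genotype cannot be told apart. Those of *Hlx*, *Msx1*, *Foxf1*, *Bmp4*, *Gata3* and *Six2*, among others, were also lost with the splicing regulators.

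Of the 7 kept probes of related NK-like homeobox genes 3 were higher, 2 lower and 2 did not pass, with a median log2 difference of 0.25 against 0.04 over all kept probes. *Barx1*, which directs stomach mesenchyme and is also needed for spleen formation, ran from 10.03 to 10.67 in wildtype and from 11.67 to 12.13 in null at ILMN_2831618, a log2 difference of 1.47 (SE 0.16, adjusted p = 2.7e-04, limma). Its other probe, ILMN_1259956, rose by 1.04. *Hlx*, a gene of visceral mesenchyme, rose by 1.46 and lost its call with either covariate, at 1.50 with *Xist* and 0.87 with the splicing regulators (adjusted p = 0.231 and 0.193, limma). *Msx1* fell by 1.08 on the log2 scale and also lost its call with either covariate. It stood at -1.15 with *Xist* and -0.66 with the splicing regulators (adjusted p = 0.247 and 0.215, limma). *Hhex* fell by 0.74. With *Xist* it stood at -1.23 and lost its call (adjusted p = 0.0774, limma). With the splicing regulators it stood at -1.28 and kept the call (adjusted p = 0.00793, limma).

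Among partners and upstream regulators of the spleen program, 10 of 23 kept probes were higher, 4 lower and 9 did not pass. *Gata6*, a zinc finger regulator of visceral mesoderm and heart, had the largest rise, from 7.69 to 8.41 in wildtype to 10.17 to 10.46 in null at ILMN_2868133, a log2 difference of 2.30 (SE 0.16, adjusted p = 2.8e-05, limma). Its other probe, ILMN_1255968, was above background on the null arrays alone and at least 1.71-fold higher. *Foxf1*, a Hedgehog-responsive gene of splanchnic mesoderm, rose by 0.86 and *Hoxa5* by 0.95. The cofactor *Meis2* rose by 1.25 at ILMN_1232525, fell by 0.36 at ILMN_1215821 (0.09 with median absolute deviation scaling) and did not pass at its other 2 probes. *Nr2f2* rose by 0.52 at ILMN_2695912 and stood at 0.42 at its brightest probe, ILMN_3163196 (adjusted p = 0.0908, limma). It fell by 0.57 at ILMN_3076625, a dim probe above background on 2 of 4 null arrays. The called probes of neither gene share a direction. *Pbx3*, a homeodomain cofactor, fell by 0.99 and 1.06 at its 2 kept probes, which turned to 0.16 and 0.06 with the *Xist* covariate and to 0.63 and 0.34 with that of the splicing regulators. *Cdkn2b*, a cell cycle inhibitor that Nkx2-5 represses in the spleen anlage, was not detected on any of the arrays.

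Of 23 kept probes of the corepressors through which *Bapx1* acts, 4 were higher, 3 lower and 16 did not pass, with a median log2 difference of -0.03. The Groucho family gene *Tle1* rose by 0.80 at ILMN_1230788 and 0.58 at ILMN_2599402 and did not pass at 3 other kept probes. *Tle2* fell by 0.93 and 0.96 at its 2 probes, which lost their calls with median absolute deviation scaling (-0.66 and -0.63, adjusted p = 0.0687 and 0.0802, limma), as did every lower call of this list. *Hipk2* rose by 1.15 at ILMN_2705324 and did not pass at ILMN_1233987, and *Hdac2* rose by 0.99 at ILMN_1231785 and stood at -0.34 at ILMN_2640441 (adjusted p = 0.0765, limma).

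Of the transcription factors that act with *Nkx2-5* in the heart, 4 of 14 kept probes were higher, 5 lower and 5 did not pass. The T-box repressor *Tbx3* fell at all 4 of its kept probes, by 0.31 to 1.03, of which 2 lost the call with median absolute deviation scaling: ILMN_1247220 went from -0.86 to -0.29 (adjusted p = 0.444, limma) and ILMN_3061990 from -0.31 to -0.32 (adjusted p = 0.135, limma). Its relative *Tbx2* rose by 0.98 at ILMN_2585774, which turned to -0.13 with the *Xist* covariate and to -0.55 with the splicing one, and by 0.73 at ILMN_2773918. *Hopx*, a cofactor downstream of *Nkx2-5* in the heart, was above background on 4 of 4 wildtype and 0 of 4 null arrays and was at least 1.56-fold lower. *Mef2c*, *Srf* and *Hand2* did not pass at any kept probe.

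Regulators that act with *Bapx1* in the sclerotome were higher at 7 of 14 kept probes and lower at 4. *Sox9*, the chondrocyte regulator, fell by 1.52 at ILMN_2778151 and 2.20 at ILMN_3007428 and *Sox6*, a partner of Sox9 in cartilage, by 1.18. *Sox5* went the other way, with rises of 0.69 at ILMN_2631143 and 0.92 at ILMN_1213910, and did not pass at its other kept probes. *Meox2* was above background on the null arrays alone and at least 2.63-fold higher. *Gli3* rose by 0.86 and *Bmp4* by 1.12, whereas *Gli2* fell by 0.58 at ILMN_2522863 (0.18 with median absolute deviation scaling) and rose by 0.45 at ILMN_2668750.

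Of 7 listed genes linked to NK genes in the spleen, *Cdkn2b* among them, 3 had kept probes: *Cxcl12*, *Cxcl13* and *Vcam1*. *Madcam1* was above background on 2 wildtype and 1 null arrays, *Ccl21a* on 3 null arrays and *Ccl19* on none. Of the 5 kept probes 4 were higher, and 2 were with median centring. There *Vcam1* (0.42, adjusted p = 0.107, limma) and *Cxcl12* ILMN_3158250 (0.75, adjusted p = 0.0575, limma) lost their calls. *Cxcl13*, which draws B cells, ran from 7.16 to 7.66 in wildtype and from 8.76 to 9.85 in null, a log2 difference of 1.70 (SE 0.24, adjusted p = 9.8e-04, limma). *Cxcl12* rose by 1.05 at ILMN_2658908 and 0.91 at ILMN_3158250 and stood at 0.00 at ILMN_2737302 ( adjusted p = 0.996, limma), and *Vcam1* rose by 0.56. Among genes of pyloric mesenchyme, where *Bapx1*, *Sox9* and *Gata3* act together, 6 of 11 kept probes were higher and 3 lower: *Gata3* fell by 1.49, while *Six2* rose by 1.24 and the Wnt modulator *Sfrp2* by 1.70.

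**Figure D5:**
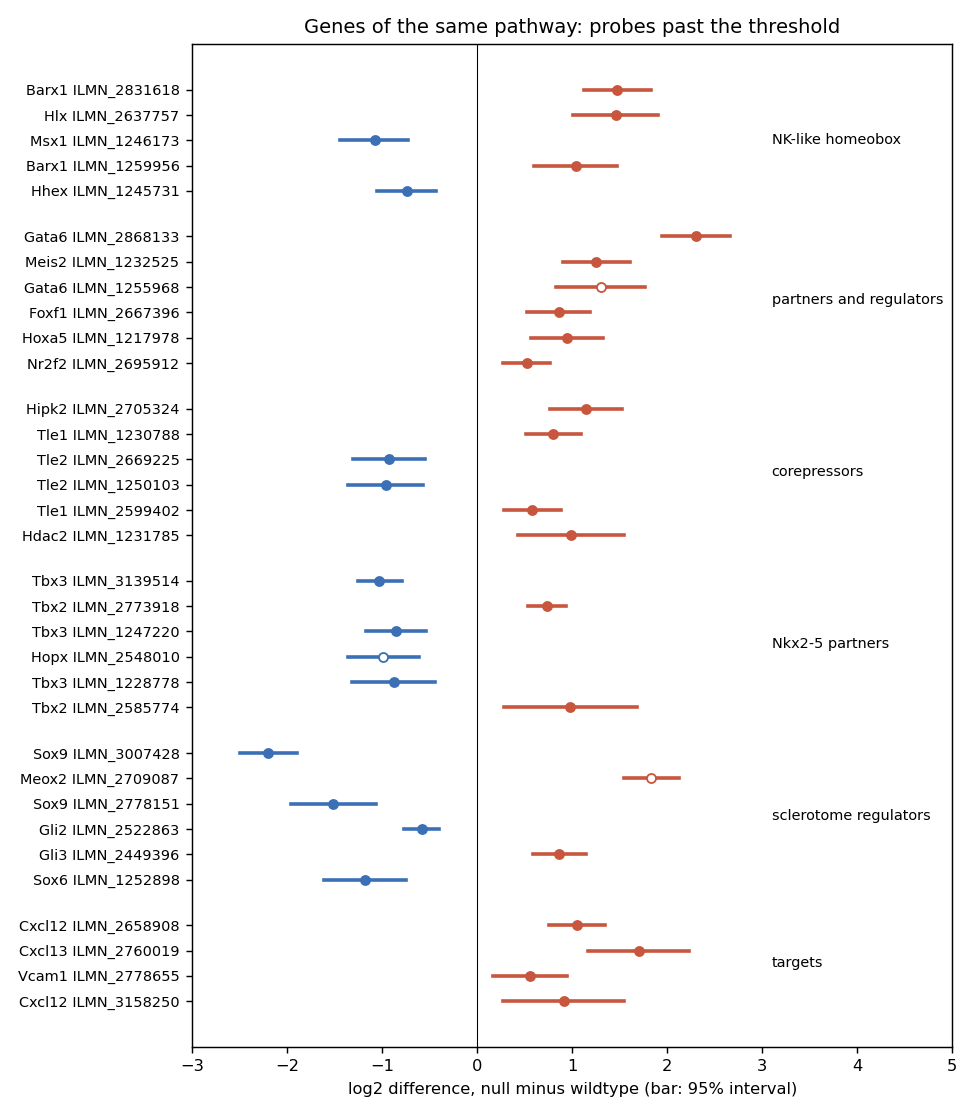
Log2 difference of null minus wildtype (x axis) with its 95% interval for up to 6 probes past the threshold in each list, ordered by the size of the moderated t, red where higher and blue where lower, with open circles where 1 genotype had no array above background and the fitted value is no measured difference. Among the filled points *Gata6* ILMN_2868133 (2.30) is the highest and *Sox9* ILMN_3007428 (-2.20) the lowest.

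Genes with the most similar profile over the 8 arrays were found for the brightest probe of each gene by Pearson's r. The arrays fall into the 2 genotypes, so a high r can repeat a difference between them, and the points share their arrays and normalization. For *Nkx3-2* they were *Nkain2* (r = 0.999), *Ogn* (0.998), *Sfrp2* (0.997), *Dmrt3* (0.996) and *Cd83* (0.995), all higher in null by 1.52 to 2.78. No wildtype array was above background at this *Nkx3-2* probe, so every r given for it includes values at background level. For *Nkx2-5* they were *Greb1*, *Adssl1* and *Rad54b* (each 0.992), *Doc2b* and *Grb14* (each 0.991), all lower, with *Adssl1* at -2.43 and *Grb14* at -2.02. For *Nkx2-3* they were *Cyp2s1* and *Fam151a* (each 0.989), *Gulo* (0.988), *Cd200* (0.987) and *Dab2* (0.986), lower by log2 differences of -1.76 to -0.70. No gene appeared for more than 1 of the 3, which does not show that the profiles are distinct. Only the 5 highest were taken for each, and *Nkx3-2* differed in the opposite direction to the others. The probes of *Nkx2-5* and *Nkx2-3* ILMN_2697760 correlated with each other at r = 0.98 over the 8 arrays and 0.76 within genotypes. With the genotype means taken out, the leading genes were others: *Irf2bp2* (0.993) for *Nkx3-2*, *Mettl3* (0.992) for *Nkx2-5* and *Serping1* (0.993) for *Nkx2-3*, of which *Irf2bp2* fell by 0.79 and *Mettl3* (-0.04, adjusted p = 0.725, limma) and *Serping1* (0.18, adjusted p = 0.166, limma) did not pass.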

How the data were processed

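Amplified, biotin-labelled RNA of the 8 samples was hybridized to Illumina MouseWG-6 arrays. The authors obtained 1 background-subtracted intensity per probe from GenomeStudio (version not given in the sources used here) and deposited these with no normalization across arrays. The deposited detection p-value columns hold 1 minus p and were turned. The deposited log2 value table equals, by comparison, the log2 signal floored at 1 minus the array median and a baseline per probe of unstated source. Bead addresses of the signal table were joined to probe names by their profile over the 8 arrays: 34536 of 45281 joined uniquely, all 19841 kept probes among them.

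Signals were processed by neqc (normexp, offset 16, quantile, log2) and tested by lmFit and eBayes with limma 3.58.1 (R 4.3.3, statmod 1.5.0), two-sided, with Benjamini-Hochberg adjustment over all probes above background (p under 0.05) on at least 4 arrays. The fit was tested on simulated data. Where 1 genotype had no array above background, its values were set to at least the smallest detected value of their array before the fold. Each array had 42.0 to 44.5% of probes above background, and the number of arrays limits the precision. Named were all member probes, the 5 most similar genes of each, and up to 6 called probes a list by the size of t, with *Tlx1*, *Pdx1* and *Cdkn2b* in any case. Other genes named were chosen after their values were seen. Members, lists and tests were chosen with earlier results of these data known. RefSeq promoter windows were matched by symbol (3 of 3). Alternatives were other offsets, background corrections, scalings, filters and covariates, the value table, the methods' test, a replicate block and leaving out arrays.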

Additional observations from a re-analysis of the deposited data

How the results depend on the processing

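The difference kept its direction and its side of the threshold under every alternative run for *Nkx2-5* (22 settings), *Nkx3-2* ILMN_2687592 (21) and *Nkx3-2* ILMN_2687594 (20). Both *Nkx3-2* probes entered through the null arrays alone and had to differ, so their count of settings is no support for their calls. For *Nkx2-3* ILMN_2697760 it was 0.15 with median absolute deviation scaling and -0.94 with *Xist* as a covariate, the latter no longer past the threshold, and for *Nkx2-3* ILMN_1228029 it was -1.19 and past the threshold with the splicing regulators as a covariate. Leaving out 1 array at a time gave 2.30 to 2.50 and 2.01 to 2.22 for the *Nkx3-2* probes, -2.47 to -2.17 for *Nkx2-5*, -0.74 to -0.64 for *Nkx2-3* ILMN_2697760 and -0.34 to -0.04 for ILMN_1228029, with no change of call. The *Nkx3-2* differences rose to 5.55 and 5.83 in the deposited value table. The count of probes that differ was 8312 and became 4819 with the brightest probe of each gene (10766 tested), 304 with the *Xist* covariate and 1383 with that of the splicing regulators. It ran from 5718 to 9890 without 1 array, and the causes were not tested.

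Replicate numbers were checked for pairing: the deviations of same-numbered samples correlated at 0.17, 0.07, 0.38 and 0.41 over 19841 probes, and since 1 of the 4 was not over 0.1 and the labels name no shared litter or day, the numbers were not read as pairs. With the replicate block 8847 probes differed, and the 5 member probes kept their side of the threshold. *Nkx3-2* was not above background on any wildtype array, which limits its fold to a lower bound.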
